A study of Mus musculus with 6 samples.

Results

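Ion channels set the membrane potential of an endothelial cell and the entry of calcium that follows from it. Genes of the voltage-gated potassium, sodium and calcium channels, of the other potassium channels named with them, of the TRP and Piezo cation channels and of the ClC chloride family were taken from the count table by gene symbol. The rule kept the symbols of the Kcn, Cacna, Cacnb, Cacng, Scn, Trpc, Trpm, Trpv, Piezo and Clcn series and left out the antisense RNA Kcnq1ot1. It found 160 genes among the 23420 symbols of the table, and the rule itself uses symbols and no measured value.

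An endothelial line from the mouse embryo, eEnd2, was used. Both groups were stably transfected with human Integrin-β1A carrying GFP in its extracellular part after K107, driven by a short human β-actin promoter beside a matrix attachment region of chicken lysozyme, and both kept their own mouse Integrin-β1. One group carried the wildtype chimera (β1-WT-GFP) and the other the K794Q mutant (β1-K794Q-GFP), in which glutamine stands in for acetylated lysine. The cells were pools sorted for GFP, grown to confluence without treatment. Whether a culture came from the sort for low or for high GFP is not stated in its labels. Each group had 3 cultures (A, B and C), whose total RNA was depleted of ribosomal RNA and sequenced. The labels name cultures and no separate transfections, so that p-values measure only the spread between these cultures, which may be technical. Where values of the 3 cultures of a group are listed, they stand in the order A, B, C.

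In endothelium, inward rectifier potassium channels hold the resting potential, and hyperpolarization increases the driving force for calcium. Many, but not all, TRP channels pass calcium, as does Piezo1, in response to lipids, second messengers, stretch or blood flow. Piezo1 is a main sensor of shear stress there. Voltage-gated sodium and calcium channels are best known from nerve and muscle. Clcn1 and Clcn2 encode chloride channels of the cell surface, and the products of Clcn3 to Clcn7 are chloride transporters of endosomes and lysosomes.

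Cultures differed in how closely they matched others of their group. The totals lay between 9589826 and 15287191 counts, and the limit behind a count of 0, taken as 3 counts, corresponded to between 0.209 and 0.300 CPM (counts relative to the TMM-scaled library size). Floors of this kind cover counting error only. Of the 11608 genes tested, 200 were at least 2-fold apart between cultures A and B of β1-WT-GFP cells, against 2818 to 2987 between either and culture C. In the K794Q group 1074 genes were that far apart between A and C, and 2191 to 2780 between either and culture B. Cultures A and B of β1-WT-GFP cells were nonetheless further apart than counting noise (chi-square 9.97 times its degrees of freedom), and both were kept. Endothelial markers were present in each culture. All 12 of the list were tested, 11 were at 1 CPM or more in every culture, and the exception, Vwf, lay between 0.262 and 2.41 CPM. The summed level of the 7 smooth muscle markers was at most 5.64 CPM, the 6 striated muscle markers summed to at most 15.3 CPM (Tnnt2 at 14.6 CPM in β1-WT-GFP culture C, 4 of 6 with no count), and the 5 epithelial markers summed to at most 1.18 CPM. Of the leukocyte markers Cd68 lay between 31.0 and 103 CPM, Ptprc had 4 counts in all, Cd3e had none, and Csf1r had 153 counts in β1-WT-GFP culture C against 4 to 9 in each other culture. The 7 neuronal markers summed to 281 CPM in β1-WT-GFP culture C, of which Stmn2 made 273, and to between 6.51 and 22.3 in the other cultures.

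Most of the channel genes were silent or nearly so. Of the 160 genes, 66 (41.2%) had no count in any culture, 67 had some counts but fell under the filter on low counts, and 27 (16.9%) were tested. Among all symbols 31.8% had no count and 49.6% were tested. The tested genes were 6 of 40 pore-forming voltage-gated potassium channels (Kcnd3, Kcnf1, Kcng3, Kcnh1, Kcnh2 and Kcnq1), 1 of 11 auxiliary subunits of these (Kcne3), 1 of 15 inward rectifiers (Kcnj2), 2 of 14 two-pore potassium channels (Kcnk2 and Kcnk6), 1 of 10 pore-forming calcium channel subunits (Cacna1a), 2 of 16 calcium channel auxiliary subunits (Cacnb3 and Cacng4), 2 of 4 sodium channel auxiliary subunits, 5 of 21 TRP channels (Trpc1, Trpc2, Trpm4, Trpm7 and Trpv2), 2 of 2 Piezo channels and 5 of 6 ClC genes (Clcn2, Clcn3, Clcn5, Clcn6 and Clcn7). None of the 12 potassium channel subunits gated by calcium or sodium and none of the 9 pore-forming sodium channel subunits passed the filter. A gene can pass this filter through a single group where it is high, so that the tested genes are no sample of all members.

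**Figure D1:**
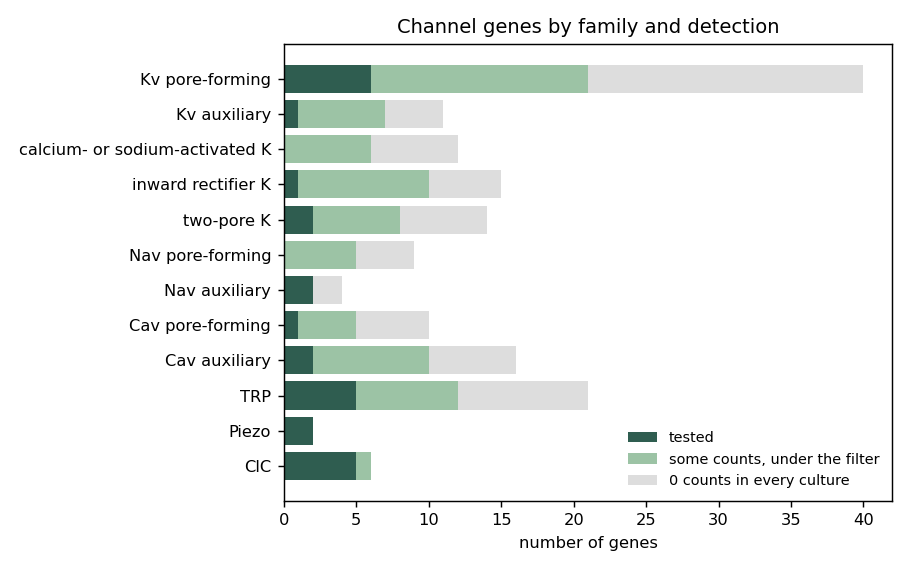
Number of channel genes in each of 12 families (horizontal bars, genes), divided into genes tested, genes with some counts under the filter, and genes with 0 counts in every culture. Pore-forming voltage-gated potassium channels are the largest family, with 40 genes of which 6 were tested, and 5 of 6 ClC genes were tested.

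The promoters of a few members are shown because they belong to the patterns described further on: a channel abundant in every culture (Trpm7), the inward rectifier that was nearly lost in culture C of both groups (Kcnj2), 2 genes that were high in β1-K794Q-GFP culture B (Kcnh1 and Trpv2), and the member that fell in β1-K794Q-GFP cells (Kcng3). Each sequence is the RefSeq window of GRCm38.p6 from 250 bases before to 50 bases after the most upstream start listed, written 5′ to 3′ on the strand of the gene, with the CG dinucleotides in capitals.
Trpm7 (chr2:126876212-126876511, minus strand): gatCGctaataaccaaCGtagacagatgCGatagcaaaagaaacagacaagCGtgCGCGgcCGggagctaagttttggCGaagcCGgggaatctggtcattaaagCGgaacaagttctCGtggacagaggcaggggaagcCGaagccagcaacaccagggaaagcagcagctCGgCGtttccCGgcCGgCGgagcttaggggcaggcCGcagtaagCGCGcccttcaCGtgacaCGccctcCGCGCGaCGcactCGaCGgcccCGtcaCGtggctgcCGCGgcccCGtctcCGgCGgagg
Kcnj2 (chr11:111065914-111066213, plus strand): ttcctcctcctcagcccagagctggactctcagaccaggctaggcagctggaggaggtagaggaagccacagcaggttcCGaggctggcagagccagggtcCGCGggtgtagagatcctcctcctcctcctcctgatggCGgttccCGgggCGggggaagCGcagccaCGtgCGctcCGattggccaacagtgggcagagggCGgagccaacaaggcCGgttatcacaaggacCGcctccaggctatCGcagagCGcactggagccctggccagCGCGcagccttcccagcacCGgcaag
Kcnh1 (chr1:192190527-192190826, plus strand): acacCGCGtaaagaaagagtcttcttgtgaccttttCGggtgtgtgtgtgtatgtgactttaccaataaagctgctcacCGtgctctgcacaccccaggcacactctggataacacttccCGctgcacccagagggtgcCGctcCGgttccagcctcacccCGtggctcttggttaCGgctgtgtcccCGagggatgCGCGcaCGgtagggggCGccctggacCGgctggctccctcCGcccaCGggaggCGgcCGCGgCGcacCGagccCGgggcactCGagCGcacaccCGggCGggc
Trpv2 (chr11:62574236-62574535, plus strand): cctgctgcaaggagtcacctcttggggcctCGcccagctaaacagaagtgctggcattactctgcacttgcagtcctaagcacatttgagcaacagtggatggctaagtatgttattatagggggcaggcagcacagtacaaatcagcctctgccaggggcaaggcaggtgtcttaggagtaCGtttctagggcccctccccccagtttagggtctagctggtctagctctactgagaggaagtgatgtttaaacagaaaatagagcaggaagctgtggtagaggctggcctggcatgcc
Kcng3 (chr17:83631846-83632145, minus strand): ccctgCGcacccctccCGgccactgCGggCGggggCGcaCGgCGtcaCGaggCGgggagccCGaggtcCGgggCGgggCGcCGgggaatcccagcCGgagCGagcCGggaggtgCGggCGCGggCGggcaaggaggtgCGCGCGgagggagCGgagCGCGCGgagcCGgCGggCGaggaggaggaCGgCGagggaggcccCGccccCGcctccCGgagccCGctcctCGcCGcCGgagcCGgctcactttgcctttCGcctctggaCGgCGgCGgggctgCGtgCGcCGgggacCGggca

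The windows held 35 CG dinucleotides in Trpm7, 18 in Kcnj2, 27 in Kcnh1, 2 in Trpv2 and 49 in Kcng3. Trpv2 and Kcnh1, both highest in the same culture, thus lie far apart in CG content. RefSeq windows were matched by symbol for 122 of the 160 channel genes, among them 19 of the 27 tested. The median was 19 CG dinucleotides in those 19 windows, 9 in the windows of 103 channel genes that were not tested and 22 over 8601 tested genes of the table. GGGCGG, searched on both strands, stood in 11 of the 19 windows (57.9%) and in 44.7% of the windows of channel genes not tested, against 66.8% over tested genes. TATAAA, searched on both strands, stood in 1 of the 19, that of Piezo1, and in 6.34% over tested genes. The motifs do not overlap each other, and a match describes the letters of the window only.

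Per length, the abundant channel transcripts included those of Piezo1, the inward rectifier Kcnj2 and Trpm7. Divided by the exonic length in kilobases, the mean level over the 6 cultures was 33.9 CPM per kilobase for Piezo1, 22.7 for Kcnj2, 21.5 for Trpm7 and 17.0 for Clcn7. Lower levels were those of Kcnq1 at 11.3 (through 1 culture), Clcn3 at 8.92 and Clcn6 at 7.27 CPM per kilobase. Of the 27 tested genes, 18 were at 1 CPM or more in every culture, and 3 (Piezo1, Trpm7 and Clcn3) were at 100 CPM or more in every culture. Summed over all 160 genes the level was 1216 to 1356 CPM in β1-WT-GFP cultures, 1385 and 1381 in cultures A and C of β1-K794Q-GFP cells, and 1837 in β1-K794Q-GFP culture B.

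**Figure D2:**
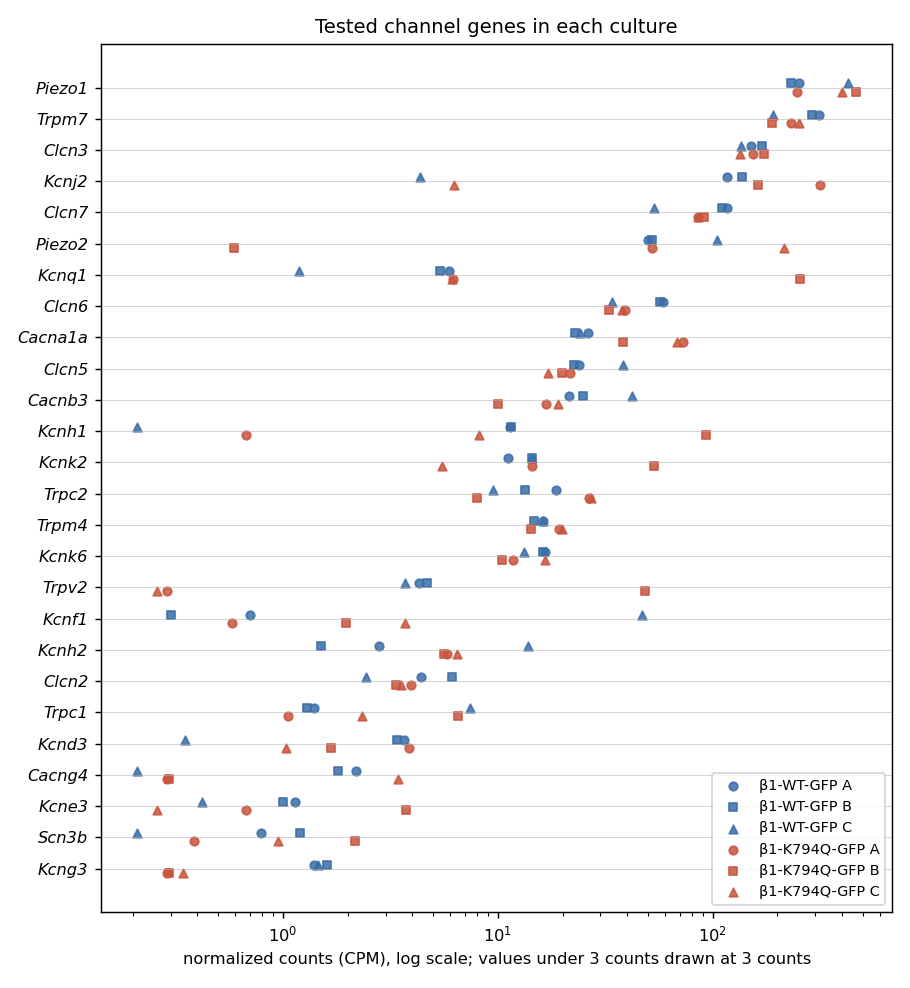
Normalized counts (CPM, log axis) of 26 of the 27 tested channel genes in each of the 6 cultures, ordered by mean level, with values under 3 counts drawn at 3 counts. Clcn3, Trpm4 and Kcnk6 form tight rows, and the widest rows are those of Kcnh1, Piezo2, Kcnq1, Trpv2, Kcnf1 and Kcnj2.

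Between the groups 3 of the 27 tested genes passed both thresholds (2-fold or more in either direction, with an unadjusted p no higher than 0.05 by edgeR's quasi-likelihood F-test). Over all 11608 genes 5.19% passed them. Cacna1a and Kcnq1 were higher in β1-K794Q-GFP cells, where 3.48% of all genes were called higher, and Kcng3 was lower, where 1.71% of all genes were called lower. At an adjusted p of 0.05 (Benjamini-Hochberg over all genes) 0 of the 27 remained in edgeR's quasi-likelihood test, which called 0.181% of all genes at that level. At an unadjusted p of at most 0.05 there were 4 (10.2% of all genes), the fourth being Cacnb3. DESeq2 gave an adjusted p of at most 0.05 to 1 (Cacna1a) of the 24 members for which it gave one (4.15% of all genes), and edgeR's likelihood ratio test to 2 of 27, Cacna1a and Kcng3 (2.74%). Without β1-K794Q-GFP culture B edgeR's quasi-likelihood test reached that level in 2 of 33 members tested, Cacna1a and Trpv2 (1.05% of all genes), and without this culture and β1-WT-GFP culture C in 6 of 30 (15.3%). In the fit without culture B, Trpv2 passed the filter on low counts only through the β1-WT-GFP cultures, so that its call there depends on that selection. The fitted log2 fold change was above 0 in 13 genes and below 0 in 14, with a median of -0.03, the median over all tested genes being -0.02.

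**Figure D3:**
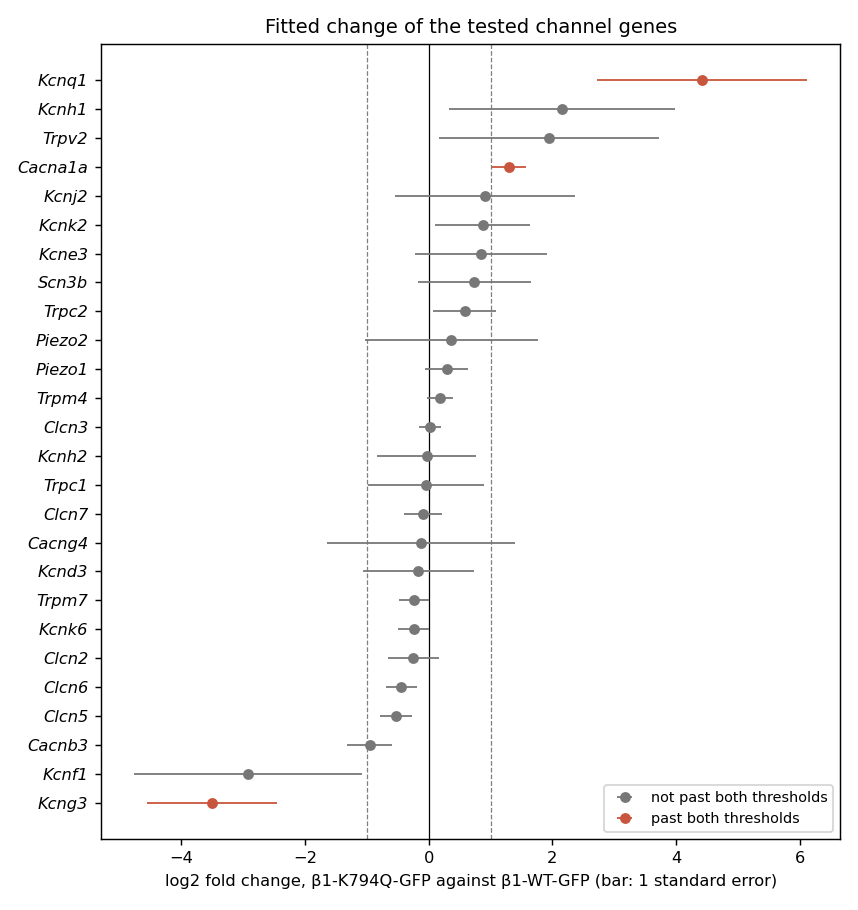
Fitted log2 fold change (β1-K794Q-GFP over β1-WT-GFP) for 26 of the 27 tested channel genes, with bars of 1 standard error, 3 genes past both thresholds in red and dashed lines at 2-fold. Cacna1a has a short bar, and the bars of Kcnq1, Kcnh1, Trpv2 and Kcnf1 span several log2 units.

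Cacna1a encodes the pore of the P/Q-type voltage-gated calcium channel and spans 84388440 to 84640246 of chromosome 8 (GRCm38, plus strand). It had 26.2, 22.8 and 24.0 CPM in the β1-WT-GFP cultures and 73.0, 38.4 and 67.8 CPM in the β1-K794Q-GFP cultures. The lowest β1-K794Q-GFP culture, B, was above the highest β1-WT-GFP culture, and the groups did not overlap. The means were 59.7 ± 18.7 and 24.4 ± 1.75 CPM (SD, n = 3 each), and the fitted log2 difference was 1.29 ± 0.27 (SE; adjusted p = 0.157 by Benjamini-Hochberg over all genes, edgeR). Both thresholds held when any 1 of the 6 cultures was left out, with log2 fold changes from 1.13 to 1.54. In an exact permutation test (two-sided) p was 0.1, the smallest that 3 cultures against 3 allow. The level of the region was not raised: the running median over 25 tested genes around Cacna1a was -0.17, -0.48 and -0.06 log2 units from the mean of β1-WT-GFP cells in the β1-K794Q-GFP cultures. After subtraction of this level of the region, the fitted log2 difference rose to 1.49.

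No other pore-forming calcium channel subunit was tested. Cacna1b, Cacna1d, Cacna1e, Cacna1h and Cacna1s had no count, and Cacna1c, the L-type pore of smooth and cardiac muscle, had 1 count in the 6 cultures together. Of the auxiliary subunits, Cacnb3, a cytoplasmic β-subunit that promotes surface expression of the pore, had 21.4, 24.99 and 42.1 CPM in the β1-WT-GFP cultures and 16.7, 9.97 and 19.1 CPM in the β1-K794Q-GFP cultures. All β1-K794Q-GFP cultures lay below all β1-WT-GFP cultures. The log2 fold change of -0.95 ± 0.37 (SE; adjusted p = 0.44, edgeR) stayed just short of 2-fold. It was -0.59 without β1-WT-GFP culture C, and it passed both thresholds in the fits without β1-WT-GFP culture A or without β1-K794Q-GFP culture C. Cacnb1, another β-subunit, was under the filter with 48, 30 and 11 counts in the β1-WT-GFP cultures against 9, 4 and 9 in β1-K794Q-GFP cultures. Cacng4, a γ-subunit, lay at 0.07 to 3.44 CPM with overlapping groups.

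Kcng3 encodes a potassium channel subunit that forms no channel alone and modifies those of the Kv2 type. The gene spans 83585957 to 83631895 of chromosome 17 (GRCm38, minus strand). It had 1.4, 1.6 and 1.5 CPM (16, 16 and 21 counts) in the β1-WT-GFP cultures. In cultures A and B of β1-K794Q-GFP cells it had 0 counts, and in culture C it had 4 counts (0.344 CPM), so that every β1-K794Q-GFP culture was below every β1-WT-GFP culture. The log2 fold change was -3.50 ± 1.05 (SE; adjusted p = 0.302, edgeR), and both thresholds held when any 1 of the 6 cultures was left out. The fitted value was then -2.98 to -7.08, the last without β1-K794Q-GFP culture C, which leaves only counts of 0 in that group. Pooled over cultures, 53 counts stood against 4, a ratio of 11.9 with a 95% interval from 4.38 to 45.3 that covers counting error only. Kcng3 passed the filter on low counts only through the β1-WT-GFP cultures, where it was high. Its call, the fits with 1 culture left out and this interval all depend on that selection.

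Kcnq1, the pore of a slowly activating potassium channel of heart and epithelia, rested on 1 culture. It had 5.95, 5.40 and 1.18 CPM in the β1-WT-GFP cultures, 6.16 and 6.11 CPM in cultures A and C of β1-K794Q-GFP cells, and 254 CPM in β1-K794Q-GFP culture B. Without culture B the β1-K794Q-GFP values were barely above those of cultures A and B of β1-WT-GFP cells. The fitted log2 fold change of 4.42 ± 1.70 (SE; adjusted p = 0.441, edgeR) became 0.57 without that culture. With 1 culture left out it was called in 2 of 6 fits, those without β1-K794Q-GFP culture A or C, and not with the culture letter as a block (2.63). DESeq2 gave it no p-value. Its imprinted antisense transcript Kcnq1ot1 overlaps it on chromosome 7 of GRCm38, from 143203458 to 143296549 within 143106362 to 143427042. Kcnq1ot1 had 50.4 CPM in β1-K794Q-GFP culture B and 183 to 384 CPM in the other 5 cultures, so that the culture highest in the sense gene was lowest in the antisense one. Whether the counting used strand is not given in the sources used here, and without strand the reads of both cannot be told apart. Of the other genes tested within 300 kb, Cd81, Tssc4, Cars, Tnfrsf22 and Tnfrsf23 were also highest in that culture, Cd81 at 961 CPM against at most 473 and Tssc4 at 68.5 CPM against at most 37.1 elsewhere. Tnfrsf26 was lowest there, at 1.58 against at least 67.2 CPM. R74862 and Slc22a18 were lowest by small gaps at low levels, at 1.18 and 0.493 CPM against at least 1.25 and 0.700. Cdkn1c, Nap1l4 and Osbpl5 were neither highest nor lowest there. Cdkn1c had 10.8 CPM in that culture, 0.963 and 0.774 in cultures A and C of β1-K794Q-GFP cells, and 1.18 to 22.6 in the β1-WT-GFP cultures.

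**Figure D4:**
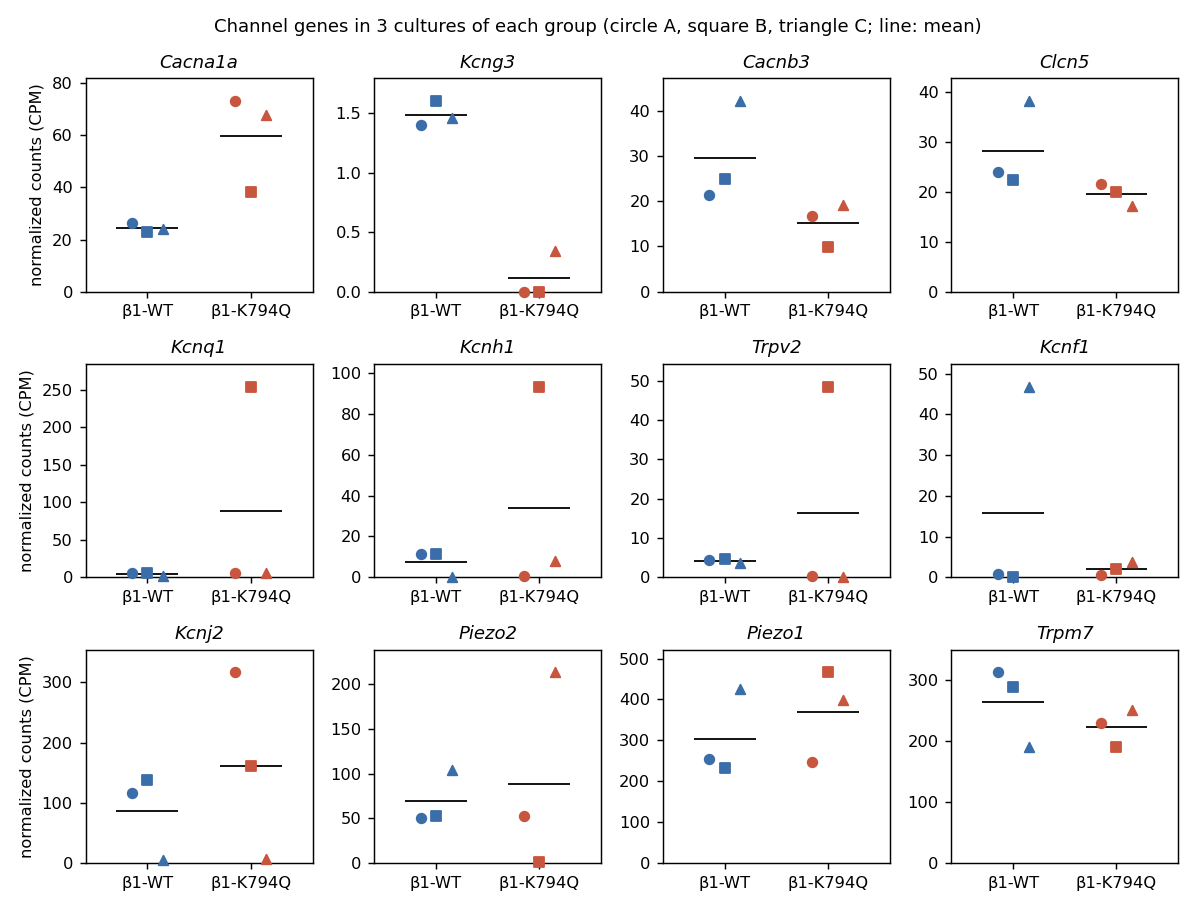
Normalized counts (CPM, linear axes starting at 0) of 12 channel genes in 3 β1-WT-GFP and 3 β1-K794Q-GFP cultures, with a circle for culture A, a square for B, a triangle for C and a line at the group mean. The groups are apart in Cacna1a, Kcng3, Cacnb3 and Clcn5, whereas single cultures carry the means of Kcnq1, Kcnh1, Trpv2 and Kcnf1.

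The groups did not overlap in 5 of the 27 genes (18.5%): Cacna1a, Kcnq1, Kcng3, Cacnb3 and Clcn5. Over all tested genes this held for 16.6%. In 2 of the 5 the β1-K794Q-GFP cultures were the higher ones (8.45% of all genes) and in 3 the lower ones (8.12%). In the other 22 genes at least 1 culture of a group lay inside the range of the other.

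Cultures of the same group were wide apart in the channel genes. The median SD within a group was 1.17 log2 units over the 27 genes and 0.37 over all tested genes, at a median level of 18.8 and 34.6 CPM. All 6 cultures lay within 2-fold of each other in 5 of the 27 genes, against 47.6% of all tested genes. In 4 of the 27 genes (14.8%) the highest culture was at least 4 times every other (values under 3 counts set to 3 counts), a description chosen after the values were seen, and over all genes this held for 1.37%. In 3 of these 4 the high culture was β1-K794Q-GFP culture B (0.534% of all genes), and in 1 it was β1-WT-GFP culture C (0.663%).

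The genes high in β1-K794Q-GFP culture B were Kcnq1, Kcnh1 and Trpv2. Kcnh1, the pore of the ether-à-go-go potassium channel, had 11.4, 11.5 and 0.07 CPM in the β1-WT-GFP cultures and 0.674, 93.3 and 8.17 CPM in the β1-K794Q-GFP cultures. It was thus nearly absent from 1 culture of each group. The gene overlaps Hhat on the other strand, which had 4.02 to 13.1 CPM. Its log2 fold change was 2.16 ± 1.83 (SE; adjusted p = 0.792, edgeR). Trpv2, a calcium-permeable channel linked to heat, stretch and phagocytosis, had 4.29, 4.70 and 3.69 CPM in the β1-WT-GFP cultures. In the β1-K794Q-GFP cultures it had 0.289, 48.5 and 0.172 CPM. Cultures A and C lay below all β1-WT-GFP cultures and culture B above them. Its fitted log2 fold change of 1.95 ± 1.78 (SE; adjusted p = 0.814, edgeR) turned to -4.14 without culture B and passed both thresholds in that fit only among the fits that left out 1 culture. There Trpv2 passed the filter only through the β1-WT-GFP cultures, and its call depends on that selection. Kcnk2, the stretch- and lipid-sensitive two-pore channel TREK-1, was just short of the 4-fold mark, with 53.2 CPM in β1-K794Q-GFP culture B and 5.50 to 14.4 CPM elsewhere. Its log2 fold change of 0.87 turned to -0.42 without that culture.

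Several members under the filter had most of their counts in the same culture, and others had few there. They were named after their values were seen, and the share over all genes under the filter was not determined. Kcnq5 had 116 counts in β1-K794Q-GFP culture B and 0 in each of the other 5, and Scn3a had 38 counts there and 0 elsewhere. Cacna2d1, an α2δ-subunit of calcium channels, had 62 counts there and 1 to 13 elsewhere. Kcnk10, a relative of Kcnk2, had 60 counts there, 14 in β1-K794Q-GFP culture C and 0 to 3 elsewhere. Trpm5 had 28 counts there and 0 or 1 elsewhere. Scn8a went the other way, with 15 and 59 counts in cultures A and C of β1-K794Q-GFP cells and 0 in culture B and in every β1-WT-GFP culture. Clcn1 and Kcnk3 were also low in β1-K794Q-GFP culture B. Clcn1 had 14, 1 and 15 counts in the β1-K794Q-GFP cultures, and Kcnk3 had 12, 1 and 9. The neuronal markers Rbfox3 and Snap25, at 3.26 and 2.37 CPM, were also highest in β1-K794Q-GFP culture B, where the 7 neuronal markers summed to 6.51 CPM, the lowest of the 6 cultures. Their part in these values was not tested.

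Kcnf1 had its high level in β1-WT-GFP culture C. This potassium channel subunit, silent alone like Kcng3, had 46.7 CPM there, 0.700 and 0.200 CPM in cultures A and B of β1-WT-GFP cells, and 0.578, 1.97 and 3.70 CPM in the β1-K794Q-GFP cultures. Its log2 fold change was -2.92 ± 1.84 (SE; adjusted p = 0.697, edgeR). Kcnh2, the pore of the HERG current, was also highest in that culture, at 13.9 CPM against 1.5 to 6.45 CPM elsewhere, and so was Trpc1, at 7.45 CPM against 1.06 to 6.51. Neither passed the thresholds between the groups, with log2 fold changes of -0.03 and -0.05. Of the 7 neuronal markers Stmn2 (273 CPM) and Tubb3 (7.17 CPM) were highest in this culture, as were Tnnt2 (14.6 CPM) and the leukocyte marker Csf1r (10.7 CPM). The smooth muscle markers Acta2, Tagln and Pdgfrb were also highest there, at 1.18, 1.81 and 2.30 CPM. Others were not, such as Myh11 at 0.07 CPM and the leukocyte marker Cd68, which had 37.2 CPM there against 31.0 to 103 elsewhere. The part of these markers in the values was not tested.

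**Figure D5:**
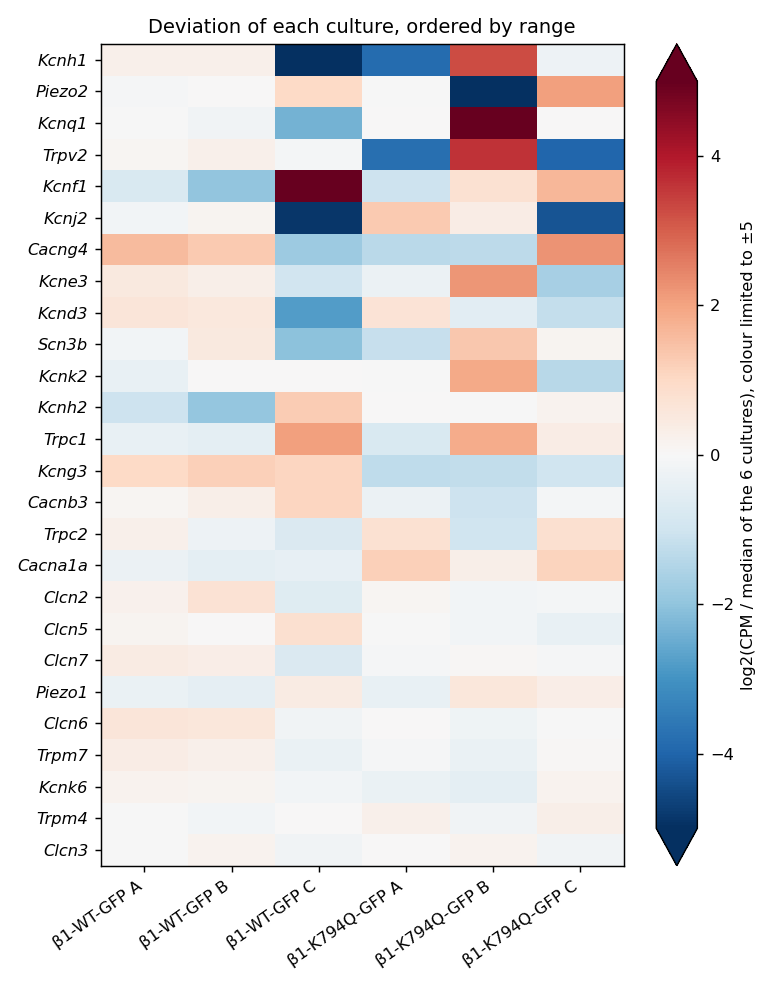
Deviation of each culture from the median of the 6 cultures on the log2 scale (colour, limited to 5 units either way, values under 3 counts set to 3 counts) for 26 of the 27 tested channel genes, ordered from the widest to the narrowest range. Dark squares fall mostly in β1-WT-GFP culture C and β1-K794Q-GFP culture B at the top, and Clcn3, Clcn6, Trpm7, Trpm4 and Kcnk6 are pale at the bottom.

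Kcnj2, the strong inward rectifier Kir2.1 that holds the resting potential of endothelial cells, was abundant in 4 cultures and nearly lost in 2. It had 116 and 137 CPM in cultures A and B of β1-WT-GFP cells and 317 and 162 CPM in cultures A and B of β1-K794Q-GFP cells. In culture C it had 4.32 CPM in β1-WT-GFP and 6.28 CPM in β1-K794Q-GFP cells, so that both groups held high and low cultures. The log2 fold change was 0.91 ± 1.46 (SE; adjusted p = 0.908, edgeR), and it ranged from -0.03 to 1.48 with each culture left out in turn. A shared letter does not pair cultures of the 2 groups in the labels. No other inward rectifier was tested: Kcnj8, the pore of the vascular ATP-sensitive channel, had no count.

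Of the mechanically gated channels, Piezo1 was among the most abundant members in every culture. It had 253, 232 and 425 CPM in the β1-WT-GFP cultures and 246, 466 and 399 CPM in the β1-K794Q-GFP cultures. The ranges overlapped almost fully, with a log2 fold change of 0.29 ± 0.35 (SE; adjusted p = 0.874, edgeR). Piezo2, best known from touch-sensing neurons, had 49.95, 52.2 and 104 CPM in the β1-WT-GFP cultures. In the β1-K794Q-GFP cultures it had 52.2, 0.592 and 213 CPM, thus both the lowest and the highest value. Its log2 fold change was 0.37 ± 1.40 (SE; adjusted p = 0.968, edgeR). In 2 of the 27 genes (7.41%), Piezo2 and Kcnq1, the lowest culture was at most 0.25 of every other, with values under 3 counts set to 3 counts (as deposited, Kcnh1 also met this, at 1 count in β1-WT-GFP culture C), and over all tested genes this held for 2.79%. For Piezo2 the low culture was β1-K794Q-GFP culture B (1.65% of all genes) and for Kcnq1 it was β1-WT-GFP culture C (0.956%).

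Among the TRP channels, Trpm7, a magnesium- and calcium-permeable channel fused to a kinase, dominated. It had 312, 289 and 190 CPM in the β1-WT-GFP cultures and 230, 189 and 251 CPM in the β1-K794Q-GFP cultures, with a log2 fold change of -0.24 ± 0.25 (SE; adjusted p = 0.844, edgeR). Trpm4, a calcium-activated cation channel, stayed between 14.3 and 19.95 CPM in the 6 cultures, with a log2 fold change of 0.18 ± 0.21 (SE). Trpc2 had 7.99 to 27.3 CPM with overlapping groups, and its locus in GENCODE lies within that of Xntrpc on the same strand, so that its value is uncertain. Of the TRP channels often studied in endothelium, Trpc4 and Trpc6 had no count, and Trpv4 had 11 counts in β1-WT-GFP culture C, 2 in culture B and 0 in the other 4 cultures.

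None of the 5 tested ClC genes passed the thresholds. Clcn3, an endosomal exchanger, had 150, 169 and 135 CPM in the β1-WT-GFP cultures and 154, 173 and 133 CPM in the β1-K794Q-GFP cultures, the narrowest range of the 27 genes at 0.37 log2 units. Its log2 fold change was 0.02 ± 0.18 (SE; adjusted p = 0.983, edgeR). Clcn7, which acidifies lysosomes and the resorption space of osteoclasts, had 116, 110 and 53.2 CPM in the β1-WT-GFP cultures and 85.2, 90.9 and 84.96 CPM in the β1-K794Q-GFP cultures. Its log2 fold change was -0.10 ± 0.31 (SE). Clcn5, the endosomal exchanger mutated in Dent disease, had 24.0, 22.5 and 38.2 CPM in the β1-WT-GFP cultures and 21.7, 19.9 and 17.1 CPM in the β1-K794Q-GFP cultures. The lowest β1-WT-GFP culture was above the highest β1-K794Q-GFP culture, and the log2 fold change of -0.53 ± 0.26 (SE; adjusted p = 0.599, edgeR) did not pass the thresholds. Clcn6 had a log2 fold change of -0.45 ± 0.25 (SE), with 33.9 to 58.8 CPM in β1-WT-GFP and 32.9 to 39.0 CPM in β1-K794Q-GFP cultures. Clcn2, a plasma membrane chloride channel, lay between 2.44 and 6.10 CPM in all cultures. Its gene overlaps Fam131a and Polr2h, and that of Piezo1 overlaps Ctu2, each on the other strand, so that part of these counts is uncertain.

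Of 27 members chosen as known from endothelium, 13 were tested and 0 passed both thresholds, which 5.19% of all tested genes passed. By edgeR's quasi-likelihood test 1 of them, Cacnb3, reached an unadjusted p of 0.05 or less (10.2% of all genes). DESeq2 called none of those to which it gave a p-value past both thresholds, and over all 11608 genes it called 464 higher and 231 lower. With so few genes, these counts do not set the list apart from all genes. The calcium-activated potassium channels of endothelial hyperpolarization were not detectable or nearly so at this depth. Kcnn4 had 4, 4 and 14 counts in the β1-WT-GFP cultures and 2, 0 and 0 in the β1-K794Q-GFP cultures. Kcnn3 had 2 counts in all, and Kcnma1 had none. Kcnk6, a two-pore channel of endosomes and lysosomes, lay between 10.5 and 16.6 CPM in the 6 cultures.

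Outside the symbol rule, a list of 62 related channel and calcium handling genes was described beside them, of which 60 were in the table and 33 were tested. Past both thresholds 1 was higher and 2 were lower in β1-K794Q-GFP cells, against 3.48% and 1.71% over all genes. Hcn2, a pacemaker channel activated by hyperpolarization, had 0.787, 0.700 and 1.11 CPM in the β1-WT-GFP cultures and 21.3, 1.58 and 16.8 CPM in the β1-K794Q-GFP cultures. Its groups did not overlap, and the log2 fold change was 3.90 ± 0.95 (SE; adjusted p = 0.207, edgeR). Hvcn1, the voltage-gated proton channel, had 119, 118 and 55.4 CPM in the β1-WT-GFP cultures and 49.6, 23.2 and 57.4 CPM in the β1-K794Q-GFP cultures, a log2 fold change of -1.17 ± 0.44 (SE; adjusted p = 0.427, edgeR). P2rx7, an ATP-gated cation channel, had 2.97, 2.80 and 3.76 CPM against 0.963, 1.58 and 1.20 CPM, a log2 fold change of -1.34 ± 0.38 (SE; adjusted p = 0.285, edgeR). The store-operated pair Orai1 and Stim1 had log2 fold changes of 0.77 ± 0.30 (SE) and 0.53 ± 0.18 (SE), both under 2-fold. Stim1 had 58.3, 68.2 and 53.0 CPM in β1-WT-GFP and 73.2, 96.9 and 88.2 CPM in the β1-K794Q-GFP cultures. The calcium pump Atp2b1 had 190, 210 and 285 against 406, 393 and 338 CPM, a log2 fold change of 0.73 ± 0.22 (SE; adjusted p = 0.312, edgeR). Orai1, Stim1 and Atp2b1 are examples of genes not past the thresholds, and others were lower or near 0. P2rx4, Tmem63a and Lrrc8d had log2 fold changes of -0.74 ± 0.30, -0.65 ± 0.27 and -0.63 ± 0.28 (SE), and Orai3 and Atp2a2 of -0.04 each. Over the 33 tested genes of the list the median was 0.08.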

How the data were processed

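Total RNA of 3 β1-WT-GFP and 3 β1-K794Q-GFP eEnd2 cultures was sequenced after Ribo-Zero plus depletion. The authors deposited unnormalized read counts, 1 row for each mouse gene symbol. The submitters' processing notes list STAR 2.7.4a, HTSeq 0.9.1, edgeR 3.38.4 and mm10, and the annotation and strand setting are not given in the sources used here. The table has 0 columns outside the 6 cultures, which were grouped by their titles.

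The test was run with edgeR 4.0.16 in R 4.3.3 (filterByExpr, TMM, glmQLFit and glmQLFTest, two-sided, common dispersion 0.186) over all 11608 genes kept. CPM are counts divided by the TMM-scaled library size. Standard errors (SE) were derived from F, as |log2 fold change| over √F. Positions and exonic lengths were read from GENCODE M21 (GRCm38), where all 160 members had a position, and promoter sequences from RefSeq (GRCm38.p6). On simulated counts with 199 genes changed 8-fold, 100% of these and 4.77% of the unchanged genes passed both thresholds. Every gene was drawn there with the common dispersion, and no culture was made to stand apart. The shares therefore do not carry over to the channel genes, whose median SD within a group was 1.17 log2 units, against 0.37 over all.

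The members and gene lists were chosen with earlier results of these data known. Named were members past both thresholds, the 10 most abundant, the tested members of the endothelial list, and members at 1 CPM or more whose groups did not overlap. Some members are counted but not reported here by name. Kcnh1, Kcnf1, Kcnh2, Trpc2, Cacng4 and the members under the filter were named after their values were seen. Alternatives were no filter, at least 10 counts in every culture, RLE, the likelihood ratio test, DESeq2 1.42.0, the culture letter as a block, a regional offset (running median over 25 genes) and leaving out each culture. A fit leaving out both β1-WT-GFP culture C and β1-K794Q-GFP culture B was added after the data were seen. Figures were made in Python 3.11.15 with matplotlib 3.10.9.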

Additional observations from a re-analysis of the deposited data

How the results depend on the processing

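Cacna1a passed both thresholds in all 14 alternative fits, and Kcng3 in all but the one that required 10 counts in every culture, which removed it. Apart from the fit with no filter, Kcng3 entered these fits only through the β1-WT-GFP cultures, where it was high. Its calls there depend on that selection. Leaving out 1 culture gave 2 to 4 channel genes higher and 1 to 2 lower, of 29 to 34 tested. Over the 11782 to 11894 genes tested, 317 to 709 were higher and 184 to 320 lower, and 2 to 7 related genes were called. Related genes tested were counted in the main fit only (33), so that their counts in other fits carry no share. The most genes over all were higher without β1-WT-GFP culture C (709) and lower without β1-K794Q-GFP culture B (320). Without both of these cultures 3 of 30 channel genes were higher and 4 lower, against 1179 and 482 of 11721 genes over all. In that fit 10 related genes were called. With no filter on low counts 9 of 94 channel genes were higher and 3 lower, against 590 and 326 of 15974 genes over all. There 6 related genes were called. At 10 counts in every culture 2 of 18 channel genes were higher and 0 lower, with 314 genes higher and 111 lower of 10541 over all (by edgeR, which gave 3 channel genes an unadjusted p under 0.05). DESeq2 with the usual filter found 1 channel gene lower. DESeq2 and the replicate block each left 1 of 27 channel genes higher, Cacna1a (464 and 371 of 11608 genes over all), and DESeq2 gave Kcnq1 no p-value. The labels do not state that cultures with the same letter are paired. The deviations of same-lettered cultures correlated at 0.09, 0.05 and 0.10 for letters A, B and C. Differently lettered cultures were not compared in this way, so these values cannot decide whether same-lettered cultures share an origin.

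Log2 fold changes turned sign in genes near 0 or carried by 1 culture, and in Kcnj2, which was nearly lost in 1 culture of each group. The fits that left out 1 culture ranged from -0.52 to 0.084 for Clcn2, -0.070 to 0.11 for Clcn3, -0.37 to 0.089 for Clcn7, -0.029 to 1.48 for Kcnj2, -0.42 to 1.34 for Kcnk2, -1.38 to 0.95 for Piezo2, -1.01 to 1.29 for Trpc1 and -4.14 to 2.53 for Trpv2. Without β1-WT-GFP culture C and β1-K794Q-GFP culture B they were -0.14 for Clcn3, -0.35 for Kcnk2, 0.35 for Trpc1 and -4.22 for Trpv2. With the replicate block they were -0.91 for Piezo2, 0.010 for Trpc1 and -1.68 for Trpv2, and with the regional offset 0.034 for Clcn7 and 0.10 for Trpc1. The cause was not tested beyond the cultures left out. Genes under the filter, with at most 116 counts in all, could not be compared at this depth.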
